A study of Mus musculus with 18 samples.

Results

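The 42 genes described here serve folding, quality control and secretion in the endoplasmic reticulum (ER) or belong to its stress response. They were taken as a list of symbols, drawn up with earlier results of these data known, from 48529 genes summed from transcript-level read estimates. RNA came from whole lumbar dorsal root ganglia (DRG), levels L2 to L4 on the operated side, of 18 male C57BL/KaLwRijHsd mice aged 5 to 7 weeks, taken 24 days after surgery. Myeloma cells of the mouse line 5TGM1-GFP, which carries green fluorescent protein, were injected into the femur of 9 mice (MM), and 9 others were given vehicle in the same way (SHAM). Both groups are of a substrain that lacks Samsn1 and in which this myeloma line grows. The ganglia hold the cell bodies of sensory neurons together with satellite glia, Schwann cells, vessels, connective tissue and immune cells, and were sequenced whole.

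Secreted and membrane proteins enter the ER through the Sec61 channel, lose their signal peptide to the signal peptidase, and are folded by chaperones, disulfide isomerases and lectins. Proteins that fail to fold are pulled back and degraded (ER-associated degradation). When unfolded protein builds up, the membrane sensors IRE1, PERK and ATF6 start the unfolded protein response. IRE1 splices the Xbp1 transcript, ATF6 is cut to release a transcription factor, and PERK slows translation while Atf4 and its target Ddit3 (CHOP) are made. Neurons use this machinery for receptors, channels and peptides, and cells that secrete much protein, plasma cells among them, hold a great deal of it. The spliced form of Xbp1 was not analysed here.

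The promoter sequences of the members show how unevenly known stress elements are spread over the list. RefSeq windows of 300 bases (250 before to 50 after a start site, build GRCm38.p6) were given for 34 of the 42 members, and were searched on both strands. The ER stress element ERSE, CCAAT followed after 9 bases by CCACG, was found in windows of 9 members and in 39 of all 32851 windows (0.119%). Among the other genes of the pathway, 0 of 97 with a window held it. Each site follows, read along the strand that holds the element, with its fixed letters in capitals and 5 flanking bases on each side.
Hspa5: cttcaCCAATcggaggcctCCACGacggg
Hsp90b1 (upstream site): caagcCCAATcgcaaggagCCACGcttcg
Hsp90b1 (downstream site): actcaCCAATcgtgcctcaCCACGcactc
Calr: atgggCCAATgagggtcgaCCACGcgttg
Canx: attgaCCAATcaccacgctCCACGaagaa
Creld2: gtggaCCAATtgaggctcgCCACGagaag
Dnajc3: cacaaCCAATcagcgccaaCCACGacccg
Pdia6: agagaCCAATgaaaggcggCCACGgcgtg
Syvn1: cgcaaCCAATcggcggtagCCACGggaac
Derl3: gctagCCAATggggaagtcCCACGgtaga
In Hspa5 the element lay from 65 to 47 bases before the start site, and in Syvn1 from 44 to 26 bases before it. The compact form ERSE-II, ATTGG and CCACG with 1 base between them, was found in 2 members and in 0.0365% of all windows.
Dnajb11: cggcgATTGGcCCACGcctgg
Herpud1: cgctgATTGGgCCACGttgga
The C/EBP-ATF element TGATGNAA, the kind of site that ATF4 binds with its partners, was found in 5 members (Txndc5, Herpud1, Trib3, Asns and Chac1) and in 3.97% of all windows. It was present in each of the 3 members listed as targets of ATF4 and CHOP.
Trib3: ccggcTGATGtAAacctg
Asns: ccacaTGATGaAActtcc
Chac1: aggagTGATGcAAcggca
The core TGACGTGG of the element read by XBP1 and ATF6 was found in Txndc5 alone and in 0.676% of all windows. Of the 97 other pathway genes with a window, 7 held this core, 9 the C/EBP-ATF element and 1 ERSE-II. In the members no site of one of these elements overlapped a site of another. Of the 34 members with a window (37 windows in all), 15 held at least 1 of the 4 elements. The windows of Pdia4, Sec61b and Spcs1, members that passed the test below, held none. The 250 bases before the start site are shown for Hspa5, the member known best as a marker of ER stress, and for Pdia4 and Sec61b, with fixed letters of an element in capitals.
Hspa5 (chr2:34771840-34772089, plus strand): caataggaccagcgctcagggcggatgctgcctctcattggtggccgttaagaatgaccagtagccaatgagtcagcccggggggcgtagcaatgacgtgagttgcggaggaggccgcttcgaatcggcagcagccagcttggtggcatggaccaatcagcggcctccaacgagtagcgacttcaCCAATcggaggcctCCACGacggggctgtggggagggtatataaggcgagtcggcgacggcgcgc
Pdia4 (chr6:47813513-47813762, minus strand): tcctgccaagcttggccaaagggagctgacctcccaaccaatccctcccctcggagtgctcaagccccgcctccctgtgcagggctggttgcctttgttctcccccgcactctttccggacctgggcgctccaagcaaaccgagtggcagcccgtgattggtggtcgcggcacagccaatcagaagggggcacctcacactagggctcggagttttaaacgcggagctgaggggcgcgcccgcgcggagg
Sec61b (chr4:47474411-47474660, plus strand): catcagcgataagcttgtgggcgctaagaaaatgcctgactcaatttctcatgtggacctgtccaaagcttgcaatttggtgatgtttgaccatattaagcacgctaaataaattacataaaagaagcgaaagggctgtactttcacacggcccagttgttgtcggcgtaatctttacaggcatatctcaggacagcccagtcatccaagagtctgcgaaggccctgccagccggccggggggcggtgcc
A match of letters is a description and not evidence of binding. Sec11c, which also passed the test, had no window, nor did Atf6, Hyou1, Manf, Mzb1, Derl1, Sec61a1 and Ssr2.

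Libraries held between 19014161 and 21538262 estimated reads in genes, and 3 reads corresponded to between 0.14 and 0.16 CPM, the read count per library size after TMM scaling. The MM libraries MM5, MM8 and MM9 stood apart in the myeloma transcripts. Ighg2b, an immunoglobulin heavy chain made by this line, was at 2197 CPM in MM5, 2334 in MM8 and 4374 in MM9. The other 6 MM libraries held between 11.7 (MM2) and 389.9 CPM. SHAM libraries held between 0.10 and 16.4 CPM, and SHAM5 (14.8) and SHAM9 (16.4) lay above MM2. Results are therefore also given without MM5, MM8 and MM9, and the count of members without SHAM5 and SHAM9. Summed over 14 plasma and myeloma cell markers, the levels ran from 89.1 to 8308 CPM in MM libraries and from 64.5 to 100.5 CPM in SHAM libraries. In MM9 most of the sum was Ighg2b (4374 CPM) and the light chain Igkc (3345 CPM). In SHAM libraries its largest parts were Ell2 (34.3 to 48.9 CPM) and Sdc1 (18.5 to 27.4 CPM). Of the 13 tested markers of that list 10 rose. Tnfrsf17 was under 3 reads in every SHAM library, and was also near the floor in MM. It was at 0 CPM in MM5, MM8 and MM9 and at most at 0.142 CPM in any MM library. The 16 sensory neuron markers summed to between 9659 and 19782 CPM in MM libraries, with MM5 and MM9 (12803) lowest, and to between 14895 and 19135 CPM in SHAM libraries. Sensory neuron markers, which define the ganglion, were thus present in every library, and 2 of the 16 fell in MM. Fibroblast markers were highest in MM5 (3486 CPM) and, of the SHAM libraries, in SHAM6 (2435 CPM). The Schwann cell markers had the same order, with 13551 CPM in MM5 and 10030 CPM in SHAM6. Macrophage markers reached 624 CPM in MM5, 328 in MM8 and 500 in MM9, against 104 to 157 in the other MM and 65.1 to 159 CPM in the SHAM libraries, and 6 of 12 rose. All 6 tested erythroid markers fell, with SHAM6 highest at 2998 CPM. Skeletal muscle and fat markers were the most uneven, at 4.69 to 16544 CPM in SHAM and 13.5 to 1678 CPM in MM libraries. Of 6 tested, 0 rose and 0 fell. Nothing in the labels says how the libraries were spread over preparation days, and p-values measure the spread between these samples.

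The ER genes were higher in MM than in SHAM ganglia as a list, mostly in 3 libraries. Of 39 members tested, 4 rose in MM at an adjusted p under 0.05: Sec61b, Spcs1, Sec11c and Pdia4. Among all 15774 genes tested, 2.75% rose, a lower share than 4 of 39. None of the 39 fell (edgeR, DESeq2 and limma each gave 0, and 0 were lower at an unadjusted p under 0.05), against 0.241% of all genes. At an unadjusted p under 0.05, 28 members were higher, where 13.9% of all genes were. The log2 fold change was above 0 in 38 of 39 members, all but Ddit3, against 48.9% of all genes. Its median over members was 0.26, and over all genes tested -0.00. In whole ganglia, more cells of a type and more RNA per cell cannot be told apart. No member had MM and SHAM libraries without overlap (0.146% of all genes did).

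**Figure D1:**
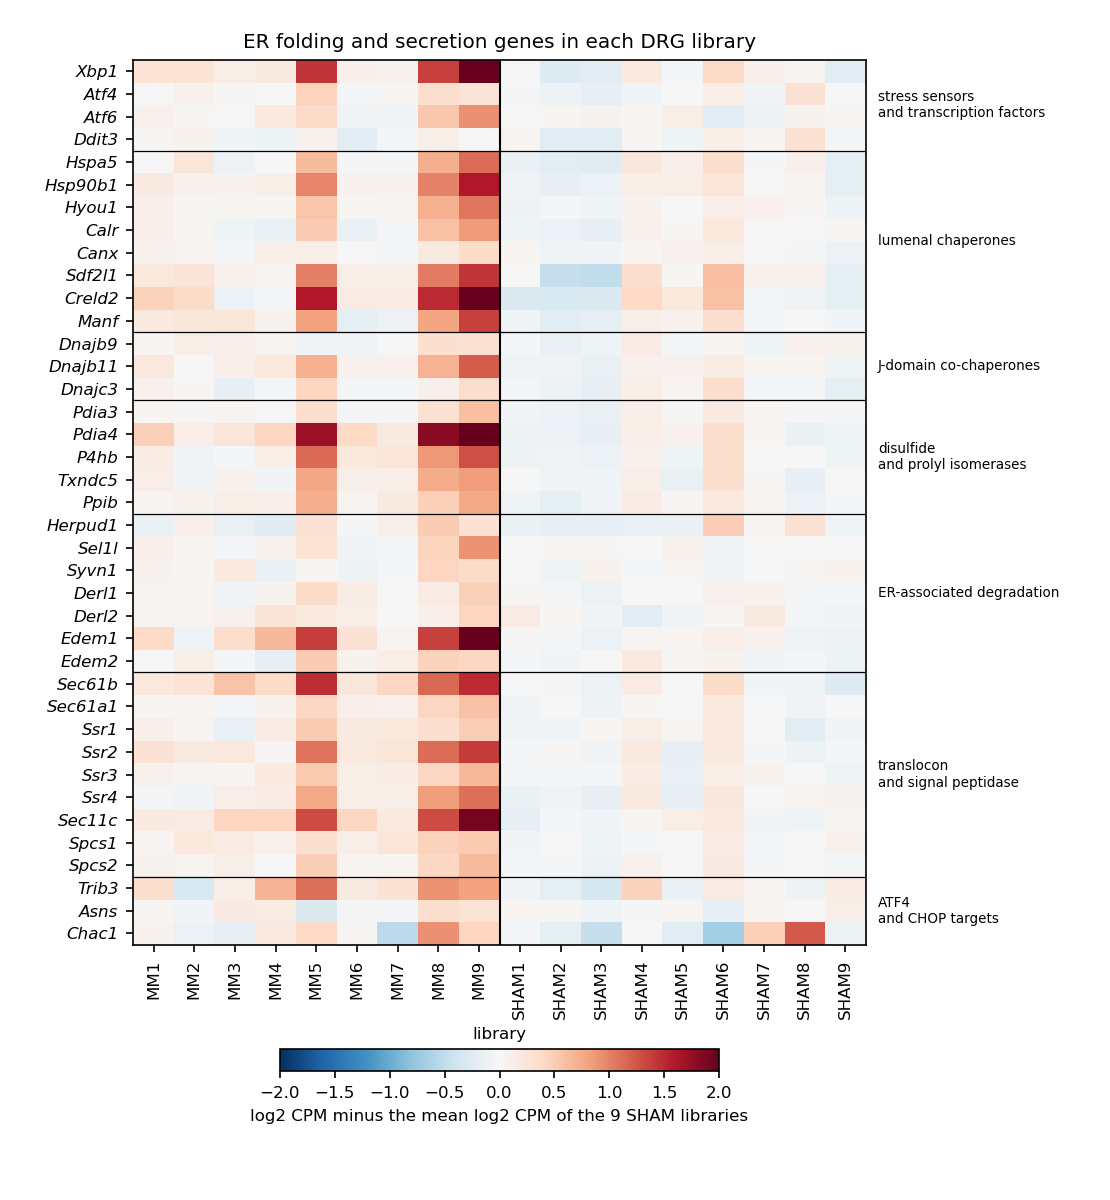
Heat map of the 39 tested members (rows, grouped by role) in the 18 libraries (columns), coloured by log2 CPM minus the mean log2 CPM of the 9 SHAM libraries, with colours at full strength from 2 up. MM5, MM8 and MM9 are red over most rows, the other 6 MM libraries are close to the SHAM level, and SHAM6 is the reddest SHAM column.

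The same 3 MM libraries held the highest values of most members. In 31 of 41 members the 3 highest of 18 libraries were MM5, MM8 and MM9, as they were in 13.4% of all genes tested. The 31 include Mzb1 and Derl3, which were under the low-count filter that all genes tested had passed. MM9 was highest of all in 29 members, MM8 in 5, MM5 in 5 and a SHAM library in 2. The median over members of the log2 difference from the SHAM mean reached 0.80 in MM9, against 0.55 for MM8 and 0.52 for MM5. It was between 0.06 and 0.09 in the other 6 MM libraries and between -0.11 and 0.17 in SHAM libraries, with SHAM6 highest. SHAM6 was the highest SHAM library in 26 of the 41 members. In 19 members all 6 other MM libraries lay inside the SHAM range. The plasma cell markers moved with these values, at 4298 CPM in MM5, 4933 in MM8 and 8308 in MM9 against at most 881 CPM in any other library. Macrophage markers were also highest there, at 624, 328 and 500 CPM in the same order, against at most 159 CPM in any other library. Sensory neuron markers were lowest in MM5 (9659 CPM) and MM9 (12803 CPM), while MM8 (16329 CPM) lay inside the SHAM range. The part of these cell types in the result was not tested.

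**Figure D2:**
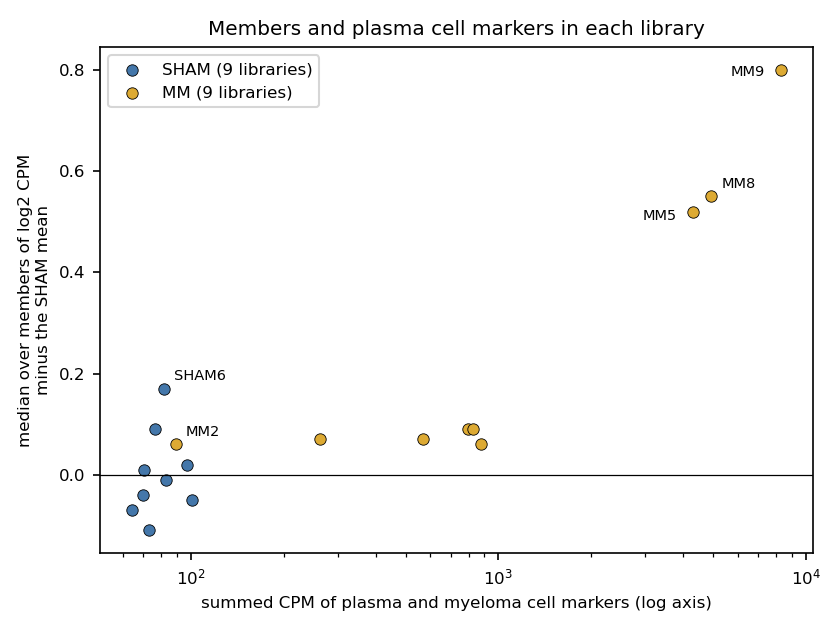
Each point is 1 library, with the summed CPM of 14 plasma and myeloma cell markers on the log x axis and the median over 39 members of log2 CPM minus the SHAM mean on the y axis. MM5, MM8 and MM9 lie apart at the upper right, from 0.52 to 0.80, and every other library lies at or under 0.17.

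Without MM5, MM8 and MM9 the members were close to the SHAM level. The median log2 fold change over members became 0.05, and 34 of 39 were above 0 (47.3% of all genes then were). By edgeR 0 members rose and 8 were higher at an unadjusted p under 0.05, where 0.331% and 5.4% of all genes were. The calls also depended on single libraries. Leaving out any 1 of the SHAM libraries except SHAM4 and SHAM6, or of MM5, MM8 and MM9, left 0 members past the threshold, with 23 to 26 higher at an unadjusted p under 0.05, and the share of all genes that rose was then between 0.474% and 0.901%. Without SHAM4, Sec61b alone passed (1.65% of all genes rose), and without MM2, 8 members did (5.62% of all genes). The count of members thus moved with that of all genes. Over the 18 fits with 1 library left out, the log2 fold change ran from 0.65 to 0.83 for Sec61b, from 0.21 to 0.27 for Spcs1, from 0.62 to 0.90 for Sec11c and from 0.83 to 1.22 for Pdia4. The median over members ran from 0.20 to 0.29. Without SHAM5 and SHAM9 together, 0 passed (0.119% of all genes rose) and 22 were higher at an unadjusted p under 0.05, while the median over members was 0.26 and Pdia4 was at 1.13 ± 0.35. DESeq2 called 11 members (5.99% of all genes): the same 4 with Xbp1, Creld2, Dnajb11, P4hb, Edem1, Ssr2 and Ssr3. Limma on the authors' deposited values called 0 (1.05% of all genes), with 23 higher at an unadjusted p under 0.05. With voom weights limma gave smaller log2 fold changes for the 4 members called by edgeR. They were 0.44 for Sec61b, 0.19 for Spcs1, 0.40 for Sec11c and 0.51 for Pdia4.

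None of the 4 sensors and transcription factors of the stress response passed the test. A count of 0 in a role group this short, here or below, is near the 2.75% of all genes that rose. Xbp1 (ENSMUSG00000020484), the factor that IRE1 activates, was at a lowest, median and highest level of 81.2, 93.2 and 309 CPM in MM libraries. In SHAM libraries the same values were 64.3, 77.1 and 101 CPM. MM9 (309), MM5 (208) and MM8 (199) lay above every SHAM library, while the other 6 MM libraries reached 93.4 CPM and lay inside the SHAM range. Its log2 fold change was 0.82 ± 0.25 (SE), which did not pass by edgeR (adjusted p = 0.0783), and 0.16 ± 0.09 without MM5, MM8 and MM9. Ddit3 (ENSMUSG00000025408), the CHOP factor of the late stress response, was at 14.2, 16.7 and 18.1 CPM in MM and at 14.3, 16.9 and 20.5 CPM in SHAM libraries. The groups overlapped, with MM5 (17.4), MM8 (18.1) and MM9 (16.7) among the other libraries, and the log2 fold change was -0.02 ± 0.07 (edgeR adjusted p = 0.871). Atf4 and Atf6 had log2 fold changes of 0.13 and 0.26. At an unadjusted p under 0.05, 13.9% of all genes were higher. Beside 0 calls by edgeR, 2 of the 4 (Xbp1 and Atf6) were higher at that level, and DESeq2 called Xbp1. Their median log2 fold change was 0.19, and 0.02 without the 3 libraries.

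The 8 lumenal chaperones had a median log2 fold change of 0.40, and none passed by edgeR, where 2.75% of all genes rose. At an unadjusted p under 0.05, 6 were higher (13.9% of all genes were), DESeq2 called Creld2, and all 8 log2 fold changes were above 0. Creld2 (ENSMUSG00000023272), a lumenal protein induced by ER stress, was at 7.58, 10.6 and 36.1 CPM (lowest, median, highest) in MM and at 6.67, 7.90 and 12.4 CPM in SHAM libraries. MM9 (36.1), MM5 (24.9) and MM8 (23.3) lay above every SHAM library and the other 6 MM libraries did not. The log2 fold change was 0.88 ± 0.29 (edgeR adjusted p = 0.0948) and 0.14 ± 0.15 without those 3 libraries. Canx (ENSMUSG00000020368), the membrane lectin calnexin, was the member closest to 0 in the group, at 322, 346 and 425 CPM in MM and 304, 332 and 361 CPM in SHAM libraries. Its groups overlapped in part, with MM4, MM5, MM8 and MM9 above every SHAM library. The log2 fold change was 0.10 ± 0.05 (edgeR adjusted p = 0.279). Hspa5, the Hsp70 chaperone BiP that holds the sensors inactive, was at 207, 226 and 484 CPM in MM and 190, 221 and 286 CPM in SHAM libraries. MM9 (484), MM8 (372) and MM5 (348) exceeded all SHAM libraries, and the medians of the groups were close. Its log2 fold change was 0.33 ± 0.16 (edgeR adjusted p = 0.217) with all libraries and 0.00 ± 0.09 without MM5, MM8 and MM9. Hsp90b1, the lumenal Hsp90 chaperone (GRP94), was at 304, 315 and 884 CPM in MM and 254, 290 and 346 CPM in SHAM libraries. Its log2 fold change was 0.57 ± 0.20 (edgeR adjusted p = 0.108) with all libraries and 0.09 ± 0.06 without the 3. The remaining 4, Hyou1, Calr, Sdf2l1 and Manf, had log2 fold changes between 0.23 (Calr, calreticulin) and 0.53 (Sdf2l1). Without the 3 libraries the median of the group was 0.06, and Calr was at -0.04 ± 0.06.

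**Figure D3:**
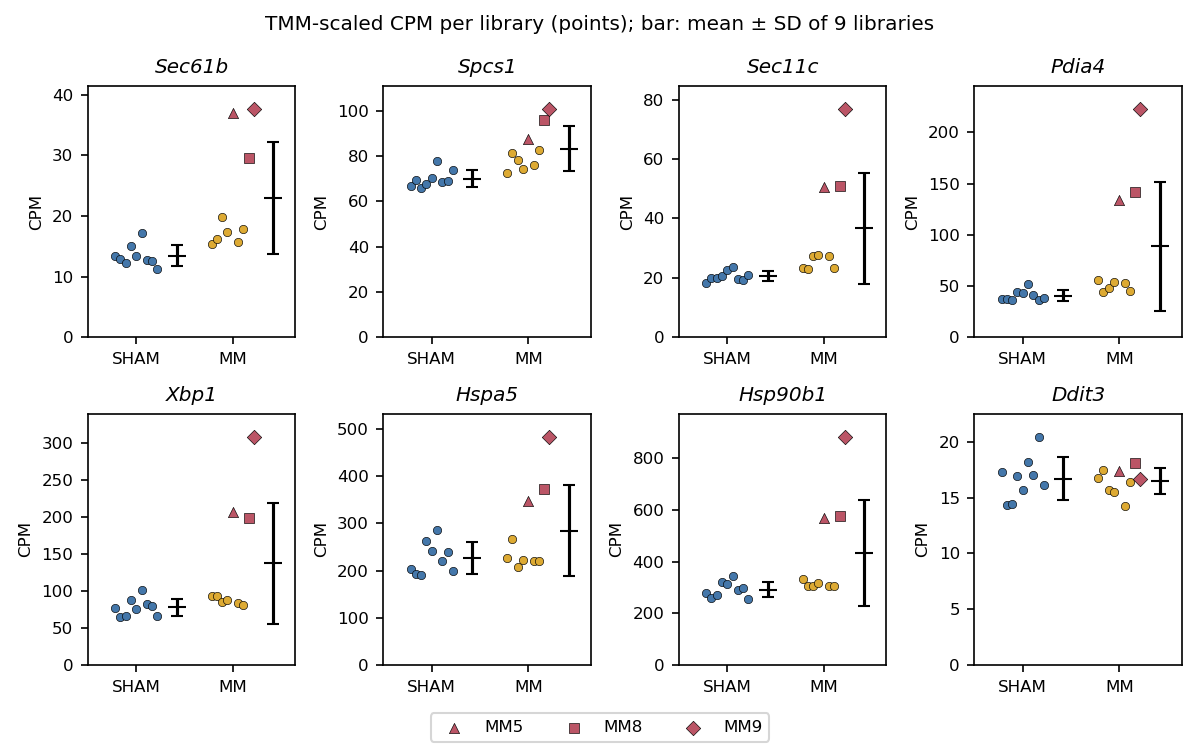
TMM-scaled CPM of 8 members (panels), with 1 point per library, SHAM and MM side by side, and the mean ± SD of 9 libraries as a bar. MM5, MM8 and MM9 have shapes of their own and lie above all SHAM points in every panel except that of Ddit3, where both groups lie between 14.2 and 20.5 CPM.

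The J-domain co-chaperones, which pass substrates to BiP, gave 0 calls by edgeR among 3 tested, where 2.75% of all genes rose. Dnajb11 alone was higher at an unadjusted p under 0.05 (13.9% of all genes were), and DESeq2 called it. Dnajb11 (ENSMUSG00000004460) was at 35.4, 40.7 and 82.1 CPM in MM and 31.9, 36.1 and 39.0 CPM in SHAM libraries. Above every SHAM library lay 5 MM libraries, namely MM9 (82.1), MM5 (58.0), MM8 (57.5), MM4 (41.0) and MM1 (40.7). The log2 fold change was 0.42 ± 0.14 (edgeR adjusted p = 0.0948), and 0.11 ± 0.05 without MM5, MM8 and MM9. Dnajc3 (ENSMUSG00000022136), the co-chaperone p58IPK that also restrains PERK, was at 73.7, 84.7 and 111 CPM in MM and 73.0, 81.1 and 106 CPM in SHAM libraries. Its groups overlapped, with SHAM6 (106) above all MM libraries except MM5 (111), and the log2 fold change was 0.08 ± 0.08 (edgeR adjusted p = 0.556). Dnajb9, a co-chaperone that returns IRE1 to its inactive state, lay close to it at 0.09.

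Among the disulfide and prolyl isomerases, 1 of 5 tested members rose, and 4 were higher at an unadjusted p under 0.05. Of all genes, 2.75% rose and 13.9% were higher at that level. Pdia4 (ENSMUSG00000025823), a disulfide isomerase also known as ERp72, was at 44.2, 54.3 and 223 CPM in MM and 35.9, 37.8 and 51.7 CPM in SHAM libraries. MM9 (223), MM8 (141) and MM5 (134) stood far above the rest, MM1 (56.0), MM4 (54.3) and MM6 (53.0) just above the highest SHAM library, and MM2, MM3 and MM7 inside the SHAM range. The log2 fold change of 1.13 ± 0.30 passed by edgeR (adjusted p = 0.0484), and each of the 9 MM libraries exceeded the median of SHAM. It was 0.30 ± 0.08 and did not pass (adjusted p = 0.157) without MM5, MM8 and MM9. Over 28 alternative fits its adjusted p ran from 0.00411 to 0.232, and 11 passed. Pdia3 (ENSMUSG00000027248), the isomerase that works with calnexin and calreticulin, was at 340.1, 356 and 525 CPM in MM and 312, 342 and 391 CPM in SHAM libraries. MM5, MM8 and MM9 exceeded the SHAM range and the other 6 MM libraries lay inside it, with a log2 fold change of 0.16 ± 0.08 (edgeR adjusted p = 0.256). P4hb, the isomerase PDI, had a log2 fold change of 0.52, Txndc5 of 0.34 and Ppib, the prolyl isomerase cyclophilin B, of 0.30. The group's median was 0.34, and 0.09 without the 3 libraries.

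Pdia6, a further disulfide isomerase, could not be read from the gene sums, which missed most of its reads. In the authors' deposited table it was at 1536, 1693 and 4871 normalized units (lowest, median, highest) in MM and 1260, 1500 and 1899 in SHAM libraries. MM9 (4871), MM5 (3268) and MM8 (3052) were above every SHAM library in the authors' deposited table, and the other 6 MM libraries were at 1774 or less. Limma on log2(value + 1) of the authors' deposited table gave a log2 difference of 0.51 ± 0.20 (adjusted p = 0.172). Mzb1, a co-chaperone of immunoglobulin assembly in B and plasma cells, was under the low-count filter. It had 65.9 estimated reads over all MM libraries, of which MM9 gave 22 and MM5 gave 21, and 16 over all SHAM libraries. Derl3, a derlin of the degradation channel, was also under the filter, with 141 reads in MM libraries (39 in MM8, 30 in MM5, 27 in MM9) and 56 in SHAM libraries.

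The degradation branch gave 0 calls by edgeR among 7 tested members, with 5 higher at an unadjusted p under 0.05 and Edem1 called by DESeq2. The shares of all genes were 2.75% by edgeR and 13.9% at the unadjusted level. Edem1 (ENSMUSG00000030104), which delivers misfolded glycoproteins to degradation, was at 25.5, 35.6 and 126 CPM in MM and 24.7, 27.3 and 29.7 CPM in SHAM libraries. Above all SHAM libraries lay 7 MM libraries, led by MM9 (126), MM5 (69.9) and MM8 (69.4), and MM2 (25.5) and MM7 (28.0) lay inside the SHAM range. Its log2 fold change was 0.94 ± 0.25 (edgeR adjusted p = 0.0526), the second highest of the members. Leaving out genes under a mean of 1 CPM before the adjustment brought it to an adjusted p of 0.0471, and without MM5, MM8 and MM9 it was 0.30 ± 0.09 (adjusted p = 0.198). Herpud1 (ENSMUSG00000031770), a membrane protein that organises the degradation complex, was at 49.9, 63.2 and 84.0 CPM in MM and 52.7, 53.9 and 83.1 CPM in SHAM libraries. SHAM6 (83.1) and MM8 (84.0) were its highest libraries and the groups overlapped, with a log2 fold change of 0.08 ± 0.11 (edgeR adjusted p = 0.682). It was -0.07 ± 0.11 without the 3 libraries. Sel1l and Syvn1, adaptor and ubiquitin ligase of the main degradation complex, had log2 fold changes of 0.22 and 0.11, Derl1 and Derl2 both 0.15, and Edem2 0.19. The group's median was 0.15, and 0.02 without the 3 libraries.

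The channel and signal peptidase genes held 3 of the 4 calls. All 9 were tested, 3 rose, 9 were higher at an unadjusted p under 0.05 and the median log2 fold change was 0.26. Over all genes 2.75% rose and 13.9% were higher at that level. Of 15 further genes of translocation and signal peptidase, 1 rose, and their median was 0.07. Sec61b (ENSMUSG00000053317), a small subunit of the Sec61 channel, was at 15.4, 17.8 and 37.6 CPM in MM and 11.2, 12.9 and 17.2 CPM in SHAM libraries. MM9 (37.6), MM5 (36.9) and MM8 (29.5) were highest, MM3, MM7 and MM4 also lay above all SHAM libraries, and MM1 (15.4) exceeded every SHAM library except SHAM6 (17.2). The log2 fold change was 0.77 ± 0.18 (edgeR adjusted p = 0.0334), and 9 of 9 MM libraries exceeded the median of SHAM. In the fit without MM5, MM8 and MM9 it was 0.34 ± 0.09 (adjusted p = 0.129), the largest value of any member there. Its adjusted p ran from 0.00244 to 0.221 over 28 alternative fits, of which 12 passed.

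Sec11c (ENSMUSG00000024516), a catalytic subunit of the signal peptidase, was at 23.0, 27.5 and 77.0 CPM in MM and 18.3, 20.1 and 23.6 CPM in SHAM libraries. In all, 6 MM libraries lay above every SHAM library, MM9 (77.0) highest, and MM1, MM2 and MM7 were between 23.0 and 23.5 CPM, just under SHAM6. Its log2 fold change was 0.83 ± 0.21 (edgeR adjusted p = 0.0434) and 0.30 ± 0.07 without MM5, MM8 and MM9 (adjusted p = 0.0609). Over the alternative fits the adjusted p ran from 0.00473 to 0.212, and 11 of 28 passed. Spcs1 (ENSMUSG00000021917), an accessory subunit of the same enzyme, was at 72.5, 81.2 and 101 CPM in MM and 65.9, 69.2 and 77.6 CPM in SHAM libraries. Again 6 MM libraries exceeded all SHAM libraries, namely MM2, MM3 and MM7 together with MM5, MM8 and MM9, and the other 3 lay inside the SHAM range. The log2 fold change was small, 0.25 ± 0.06 (edgeR adjusted p = 0.0341), and 0.15 ± 0.04 without the 3 libraries (adjusted p = 0.199). Its adjusted p ran from 0.00484 to 0.199 over the alternatives, of which 12 passed.

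Sec61a1 (ENSMUSG00000030082), which forms the pore, had the log2 fold change closest to 0 in this group. It was at 85.9, 93.0 and 132 CPM in MM and 81.7, 87.0 and 101 CPM in SHAM libraries, with only MM9, MM8 and MM5 above SHAM6. Its log2 fold change was 0.21 ± 0.08 (edgeR adjusted p = 0.133). The translocon-associated genes Ssr1, Ssr2, Ssr3 and Ssr4 had log2 fold changes between 0.22 (Ssr1) and 0.61 (Ssr2), and Spcs2 had 0.22. Ssr2 was above every SHAM library in 7 MM libraries and did not pass by edgeR (adjusted p = 0.0592). In the fit without MM5, MM8 and MM9 all 9 genes of the group were above 0, with a median of 0.10, and 5 were higher at an unadjusted p under 0.05. That was 5 of the 8 members that reached this level, with Pdia4, Edem1 and Dnajb11 the other 3. In these 6 MM libraries the plasma cell markers summed to between 89.1 and 881 CPM, against 64.5 to 100.5 CPM in SHAM libraries, and their part in the result was not tested.

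**Figure D4:**
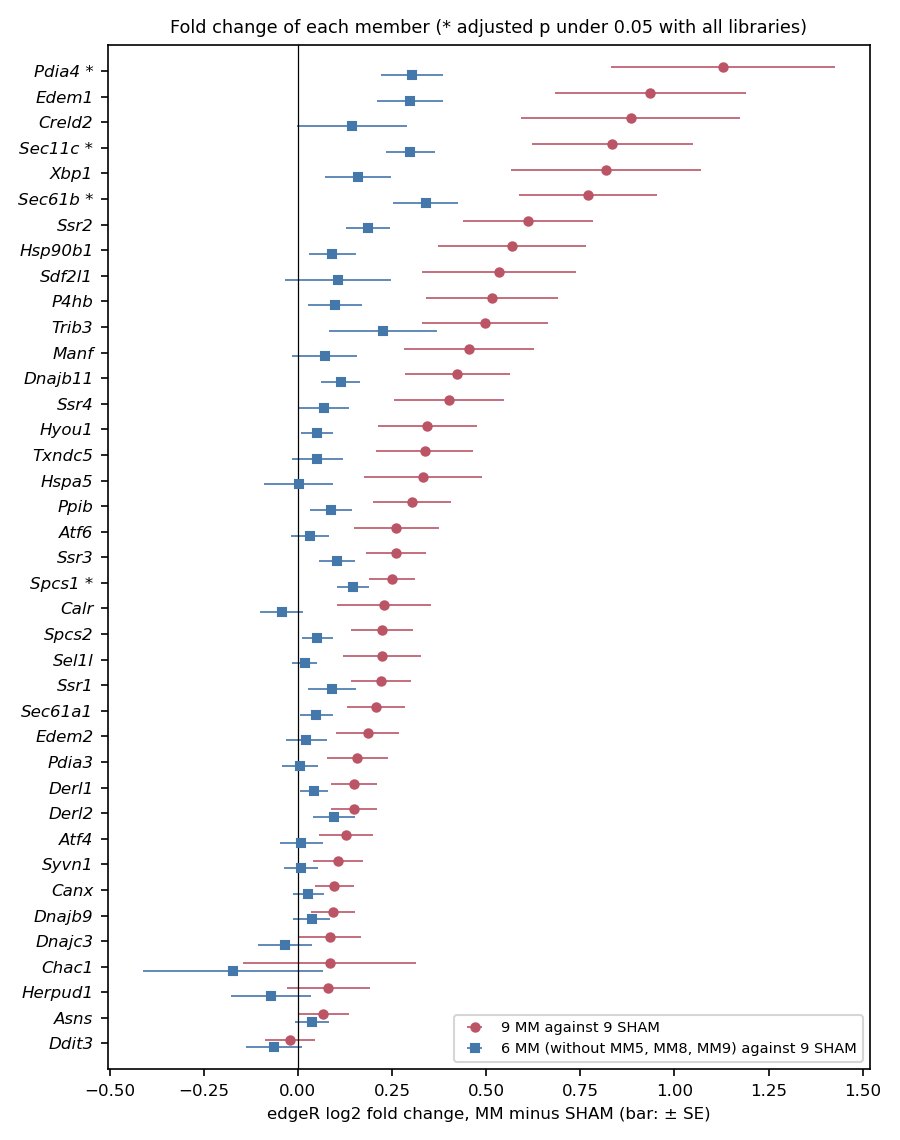
edgeR log2 fold change (MM minus SHAM, bar ± SE) of the 39 tested members with all 18 libraries (circles) and without MM5, MM8 and MM9 (squares), in order of the former. Values run from -0.02 (Ddit3) to 1.13 (Pdia4) with all libraries and stay at or under 0.34 (Sec61b) without the 3.

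The targets of ATF4 and CHOP gave no call. Of 3 tested, 0 passed by edgeR or DESeq2, and Trib3 alone was higher at an unadjusted p under 0.05. Over all genes 2.75% rose by edgeR and 13.9% were higher at that level. Trib3 (ENSMUSG00000032715), a pseudokinase induced through ATF4 and CHOP, was at 2.17, 3.35 and 5.73 CPM in MM and 2.11, 2.56 and 3.66 CPM in SHAM libraries. MM5 (5.73), MM8 (4.94), MM9 (4.64) and MM4 (4.24) lay above all SHAM libraries and MM2 near the lowest of them, with a log2 fold change of 0.50 ± 0.17 (edgeR adjusted p = 0.0991). Asns (ENSMUSG00000029752), asparagine synthetase, was at 117, 145 and 179 CPM in MM and 128, 144 and 155 CPM in SHAM libraries. MM5 was its lowest library of all 18 while MM8 and MM9 were the highest, and the log2 fold change was 0.07 ± 0.07 (edgeR adjusted p = 0.563). Chac1, a glutathione-degrading enzyme, had a log2 fold change of 0.08 ± 0.23, and its highest library was SHAM8 (13.7 CPM). The group's median was 0.08, and 0.04 without the 3 libraries.

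Levels of the members were compared between genes as TPM, which divides by transcript length. In SHAM libraries Calr was highest at 292 ± 22.8 TPM (SD, n = 9), with Spcs1 at 268 ± 17.8 and Pdia3 at 235 ± 17.3 TPM, and the ranges of Calr and Spcs1 over the 9 libraries overlapped. Hsp90b1 (193 ± 19.8) and Hspa5 (177 ± 27.4 TPM) followed, with ranges that also overlapped. The sensor Atf6 was at 17.5 ± 1.61, Edem1 at 9.22 ± 1.26 and Trib3 at 2.95 ± 0.467 TPM. Mzb1 was lowest, at 0.253 ± 0.264 TPM in SHAM and 1.08 ± 1.10 TPM in MM libraries. In the 9 MM libraries the SD was 41.3 TPM for Pdia4 (mean 65.2) against 4.22 TPM (mean 32.2) in SHAM libraries, and 67.1 TPM for Xbp1 (mean 124) against 10.3 TPM (mean 73.1).

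The fold changes of members with and without a match to ERSE or ERSE-II were set side by side. The 9 tested members with an ERSE or ERSE-II had a median log2 fold change of 0.23, between 0.08 (Herpud1) and 0.88 (Creld2). By edgeR 0 of them passed, where 2.75% of all genes did, and DESeq2 called Creld2 and Dnajb11. The 23 members with a window and neither element had a median of 0.25, between -0.02 (Ddit3) and 1.13 (Pdia4), and 3 passed by edgeR. Among these 23, Txndc5, Trib3, Asns and Chac1 held another of the elements searched for. Sec11c had no window, so whether it holds an element was not seen. Without MM5, MM8 and MM9 the medians were 0.01 and 0.09. These values are a description with no test.

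Other genes of the same pathways were also tested. A list of 118 further genes was drawn up by function, of which 114 were tested. By edgeR 6 rose and 0 fell (0 also by DESeq2 and limma, and 1, Vldlr, was lower at an unadjusted p under 0.05), with a median log2 fold change of 0.14 and 96 above 0. Over all genes 2.75% rose and 48.9% were above 0. Fkbp11, a prolyl isomerase of secretory cells, had the largest value at 2.02 ± 0.46 (edgeR adjusted p = 0.0267), with MM libraries between 0.640 and 6.91 CPM and SHAM libraries between 0.267 and 0.702 CPM. Shmt2, a mitochondrial serine enzyme induced by ATF4, had 1.35 ± 0.32 (adjusted p = 0.0325), with 24.4 to 154 CPM in MM and 22.1 to 26.9 CPM in SHAM libraries. The amino acid transporter Slc7a5 had 0.63 ± 0.16, the peroxiredoxin Prdx4 0.85 ± 0.23, the oligosaccharyltransferase subunit Ostc 0.30 ± 0.08, and Srp9 of the signal recognition particle 0.23 ± 0.06. MM9 was the highest MM library for each of these 6. Without MM5, MM8 and MM9 the median over the list was 0.05 and Shmt2 alone passed, at 0.44 (edgeR adjusted p = 0.0196).

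The lists by function are short, and a count of 0 or 1 in them is near the 2.75% of all genes that rose. In all, 2 of 15 further oxidation and isomerase genes rose (median 0.23), as did 2 of 23 genes of the ATF4 programme (median 0.38), 1 of 13 of N-glycosylation (median 0.31) and 1 of 15 of translocation (median 0.07). None of 10 sensors and their proteases (median 0.07), 15 degradation and UFMylation genes (median 0.06) or 23 vesicle transport genes (median 0.13) passed by edgeR. At an unadjusted p under 0.05 those lists had 4, 3 and 10 genes higher, and DESeq2 called 1, 1 and 2. The lists with an edgeR call had more. Oxidation and isomerase genes had 9 higher (DESeq2 called 3), the ATF4 programme 14 (7), N-glycosylation 9 (4) and translocation 4 (2). Over all genes 13.9% were higher at that level, and DESeq2 called 5.99% as higher. Ern1, which encodes the sensor IRE1, had the lowest p of the sensors, with a log2 fold change of 1.11 and an edgeR adjusted p of 0.0589.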

How the data were processed

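Salmon 1.5.2 and the build GRCm39 are named in the submitters' processing notes; index and options are not given in the sources used here. The authors' deposited quantifications hold an unscaled estimated count, a TPM value and an effective length (bases) per transcript. In the authors' deposited table, each gene has 1 normalized signal per library; the notes name DESeq2 with no version.

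Estimated counts were summed per gene through GENCODE M21 transcript identifiers (names only, as its build is older) and rounded. Of 137562 transcripts, 3620 had no gene and held 0.85% to 1.34% of reads. Of 255 listed genes, 8 whose deposited signal lay outside 0.8 to 1.25 times the scaled sum were left out of counts, a limit set after seeing the values; Pdia6 is the only member among them. Genes passing filterByExpr (15774) were TMM-scaled and tested by edgeR 4.0.16's robust quasi-likelihood test under R 4.3.3 on the 2 groups alone, Benjamini-Hochberg adjusted over all genes, threshold 0.05; the common biological coefficient of variation was 0.258. The SE given with an edgeR log2 fold change is its absolute value divided by the square root of the test's F statistic. The precision of a low value is set by its read count. Alternatives used DESeq2 1.42.0, limma 3.58.1 (voom weights; or log2(signal + 1) for a mean of at least 10), other filters and scaling, effective length offsets and omitted libraries. Deposited values were added after the data were seen. The scripts were tested on simulated data. Python 3.11.15 with pandas 2.3.3 and matplotlib 3.10.9 made summaries and plots.

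Members, lists and the rule for named genes were chosen with earlier results of these data known. The rule gives full values for members past the threshold and, in each role group, for the lowest p and the fold change closest to 0; of the other pathway genes, up to 12 past the threshold. Hspa5, Hsp90b1, Ssr2, Ern1, Vldlr and Chac1, and the examples in the paragraph on TPM, were chosen after their values were seen.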

Additional observations from a re-analysis of the deposited data

Results flagged for a closer look

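In 8 of 82 groups of 9 libraries (41 members in MM and in SHAM), 1 library lay so far from the next that its gap, as a share of the group's range, exceeded the 95% limit of Dixon's test. Chance alone gives about 1 in 20 such groups, and members that vary together are not independent. MM9 was high in 5 of them: Edem1 (gap share 0.559, 126 CPM against 69.9 in the next library), Sel1l (0.55, 283 against 207 CPM), Hsp90b1 (0.532, 884 against 575 CPM), Dnajb11 (0.516, 82.1 against 58.0 CPM) and Canx (0.499, 425 against 374 CPM). SHAM6 was high for P4hb (0.615, 171 against 142 CPM) and Sec61a1 (0.574, 101 against 89.8 CPM). SHAM8 was high for Chac1 (0.551, 13.7 against 8.2 CPM).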

How the results depend on the processing

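No member fell under any alternative, and each log2 fold change of a called member stayed above 0. The 4 member calls, 433 rises and 38 falls over all genes and 6 rises of other pathway genes became 11, 945, 257 and 20 with DESeq2; 0, 170, 49 and 0 with limma on deposited values; 0, 36, 12 and 0 with voom weights (median over members 0.155); 4, 438, 66 and 7 with length offsets; 1, 313, 20 and 1 without a count filter; 0, 53, 7 and 1 without MM5, MM8 and MM9 (median 0.052); and 0, 19, 5 and 0 without SHAM5 and SHAM9. The cause was not tested. With 1 library left out, the member calls ran from 0 to 8, the median from 0.201 to 0.286, the members without overlap from 0 to 3, the members above 0 from 37 to 39, rises over all genes from 75 to 891, falls from 9 to 139 and rises of other pathway genes from 0 to 15. Ddit3 changed sign with voom weights (0.007) and without MM6 or SHAM8 (-0.047 to 0.017 over such fits), Chac1 without MM8 (-0.038 to 0.306). Without MM5, MM8 and MM9, Calr (-0.043), Dnajc3 (-0.034), Herpud1 (-0.072) and Chac1 (-0.172) lay below 0. Of all single-gene values under alternatives, 997 kept direction and side of the threshold, 66 no longer passed, 21 newly passed and 8 changed sign. On TPM 25 and on deposited values 30 of 41 members had MM5, MM8 and MM9 highest.

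The labels do not say whether replicate numbers pair the samples. Same-numbered deviations correlated between -0.32 and 0.26, over 0.1 in 2 of 9 pairs, and 2 MM libraries correlated best with their own number. These values did not show a pairing, and so few pairs cannot exclude one. With the replicate block 0 members, 0 other pathway genes and 7 genes in all rose and 1 fell. The median log2 fold change of all genes stayed between -0.016 and -0.001 under every scaling. Members under 1 CPM, such as Mzb1 and Derl3, were limited by depth.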
